A study of Mus musculus with 33 samples.

Results

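The Slit and Robo guidance genes were described across libraries of mouse ganglionic eminences that carry or lack Dlx1 and Dlx2. The group holds 9 genes, taken by name from the 14664 genes of the deposited count table. They are the receptors Robo1, Robo2 and Robo3, the secreted ligands Slit1, Slit2 and Slit3, and the effectors Srgap1, Srgap2 and Srgap3, and all 9 were found there and tested. The ganglionic eminences are the ventral forebrain swellings from which striatal neurons and the GABAergic interneurons of striatum and cortex arise. Tissue came from e13.5 embryos of the outbred strain CD1: 4 RNA-seq libraries were Dlx1/2-/- (KO) and 4 were wild type (WT). Per the labels, the RNA of each genotype came from 2 male and 2 female embryos. The sources used here do not give which library came from which embryo, whether embryos were pooled, or how the null allele was built. The tissue is a mixture of cells, so fewer cells of a type and less RNA per cell cannot be told apart in any value below.

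SLIT proteins are large secreted proteins that bind ROBO receptors on growing axons and migrating neurons and mostly repel them. ROBO receptors have no enzymatic activity of their own. The srGAP proteins bind the cytoplasmic part of ROBO receptors, bend membranes through an F-BAR domain and switch off small GTPases that build the actin skeleton. In the embryonic forebrain, Slit and Robo genes are known for steering axons across and along the midline and for guiding interneurons around the developing striatum.

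The libraries held 14444752 to 48325231 counts in KO and 20184535 to 116989915 in WT. Levels are given as CPM, the counts scaled to 1000000 per library after TMM scaling. Changes are log2 of KO over WT from edgeR's quasi-likelihood test over 14510 genes, with Benjamini-Hochberg adjusted p-values and a threshold of 0.05. The targeted genes followed the labels: Dlx1 had 23.4 ± 1.97 CPM in KO and 124 ± 4.53 CPM in WT, and Dlx2 had 1.27 ± 0.255 CPM in KO and 21.2 ± 5.85 CPM in WT (SD, n = 4 each). Markers of the subpallium, the region that holds the ganglionic eminences, were present in all libraries, and their levels are given with the other marker lists. Libraries with replicate numbers 3 and 4 stood apart from those numbered 1 and 2 in both genotypes. Every pair of libraries within a genotype differed by more than counting noise, so none was treated as a repeat of another.

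Of the 9 genes, Robo3 rose in KO and Robo2 fell, and the other 7 did not pass the test. Over all genes tested, 0.586% were called higher and 0.896% lower in KO, 1.48% in all. The 4 KO values and the 4 WT values did not overlap for Robo2, Robo3 and Slit2, and over all genes tested this held for 5.98%. The median log2 change of the 9 genes was 0.04, beside a median of 0.00 over all genes tested. The plot of levels by library shows each gene in all 8 libraries.

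**Figure D1:**
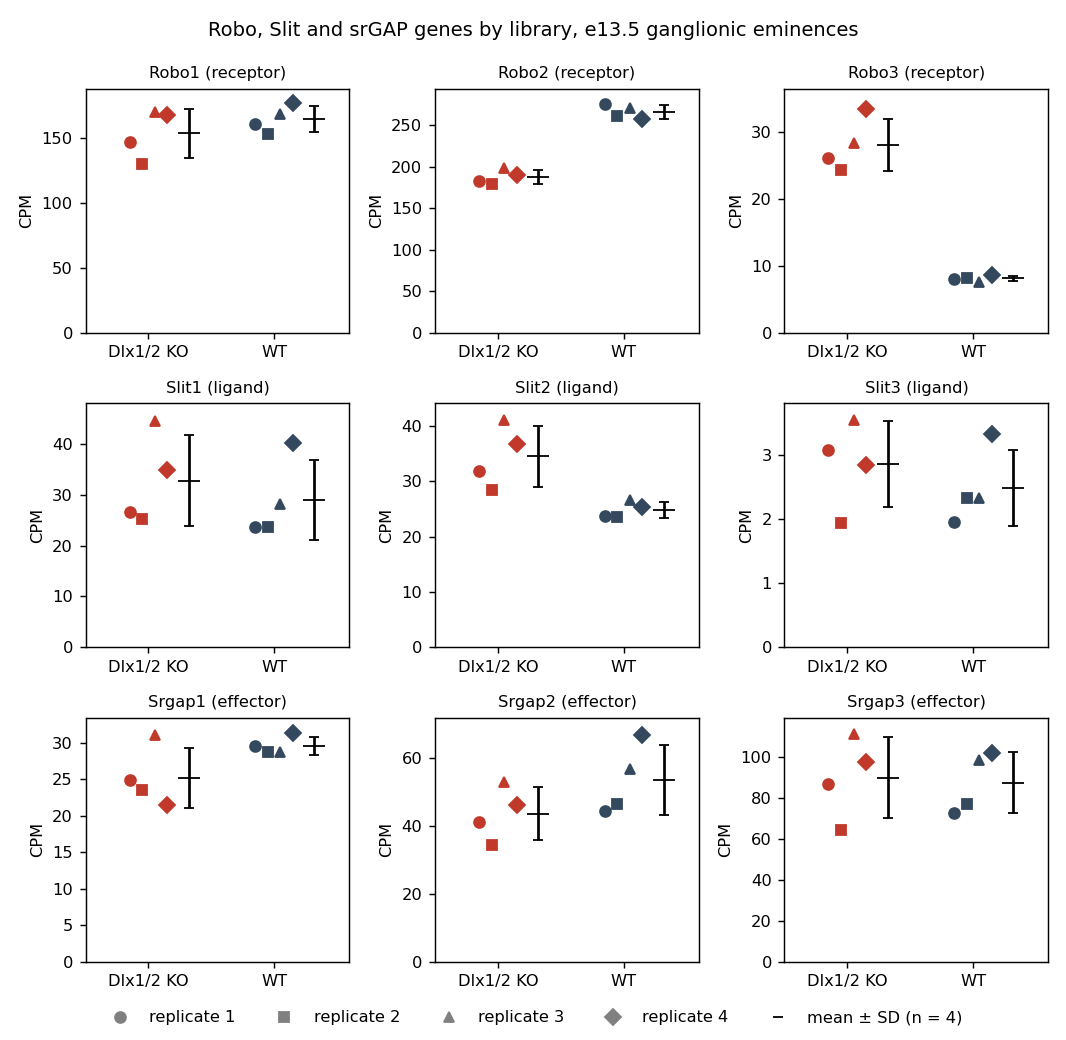
Level in CPM (y axis, from 0) of the 9 genes in 4 Dlx1/2 KO libraries (red) and 4 WT libraries (dark blue), with a marker shape for each replicate number and the mean ± SD in black. Robo3 sits between 24.3 and 33.4 CPM in KO and between 7.60 and 8.59 CPM in WT, Robo2 lies lower in all 4 KO libraries, and the Slit1 and srGAP values of the genotypes overlap.

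Robo3 is the divergent receptor of the family, known from commissural axons, where it lets axons approach and cross the midline. It had 26.1, 24.3, 28.3 and 33.4 CPM in KO replicates 1 to 4. The WT replicates 1 to 4 had 7.96, 8.16, 7.60 and 8.59 CPM. The lowest KO library was well above the highest WT library, and the WT values lay within a narrow band. Robo3 averaged 28.03 ± 3.93 CPM in KO and 8.08 ± 0.412 CPM in WT (SD, n = 4 each). Its log2 change was 1.79 (SE 0.12, edgeR adjusted p = 2.4e-05), a 3.47-fold rise with a 95% interval of 1.53 to 2.05 on the log2 scale. The raw reads behind it were 1100, 1164, 423 and 868 in the KO libraries and 910, 165, 179 and 206 in the WT libraries. The high WT read number belongs to replicate 1, the deepest library, which is not high on the CPM scale.

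Robo2, a receptor of SLIT proteins on many forebrain axons and migrating neurons, fell in KO. KO replicates 1 to 4 had 182.8, 179.1, 198.8 and 190.1 CPM. WT replicates 1 to 4 had 275.4, 261.1, 271.6 and 257.4 CPM. Again the groups did not overlap, and both were tight. Robo2 averaged 188 ± 8.70 CPM in KO and 266 ± 8.53 CPM in WT (SD, n = 4 each), a log2 change of −0.51 (SE 0.07, edgeR adjusted p = 0.0072, 95% interval −0.67 to −0.34). The KO level was 0.705 times the WT level.

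Robo1, the receptor most studied in interneurons that pass the striatum, had 146.9, 129.4, 169.7 and 167.3 CPM in KO replicates 1 to 4. It had 160.6, 152.9, 168.3 and 176.3 CPM in WT replicates 1 to 4. KO replicates 1 and 2 were below all WT libraries, KO replicates 3 and 4 were within the WT range, and the groups overlapped. The log2 change was −0.10 (SE 0.10, edgeR adjusted p = 1), with a 95% interval of −0.33 to 0.13. Leaving out 1 library gave values between −0.15 (without KO replicate 3) and −0.03 (without KO replicate 2). A change of Robo1 as large as that of Robo2 lies outside this interval, while changes inside it were not told apart from 0.

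The make-up of the receptor reads differed between genotypes. Robo3 took 7.58 ± 0.651% of all Robo1, Robo2 and Robo3 reads in KO and 1.84 ± 0.118% in WT (SD, n = 4 each). Robo2 took 51.0 ± 2.19% in KO and 60.7 ± 1.77% in WT, and Robo1 took 41.4 ± 1.85% in KO and 37.5 ± 1.73% in WT. The shares of Robo3 and of Robo2 did not overlap between genotypes, and that of Robo1 did. For each read of Robo3 there were 5.69 to 7.36 reads of Robo2 in the KO libraries and 29.98 to 35.8 in the WT libraries. These shares count reads, and longer transcripts give more reads, so they show how the make-up differed between genotypes and not how many molecules of each receptor there were. Summed over the receptors, the level was 369 ± 30.2 CPM in KO and 439 ± 11.4 CPM in WT, with no overlap between the genotypes.

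**Figure D2:**
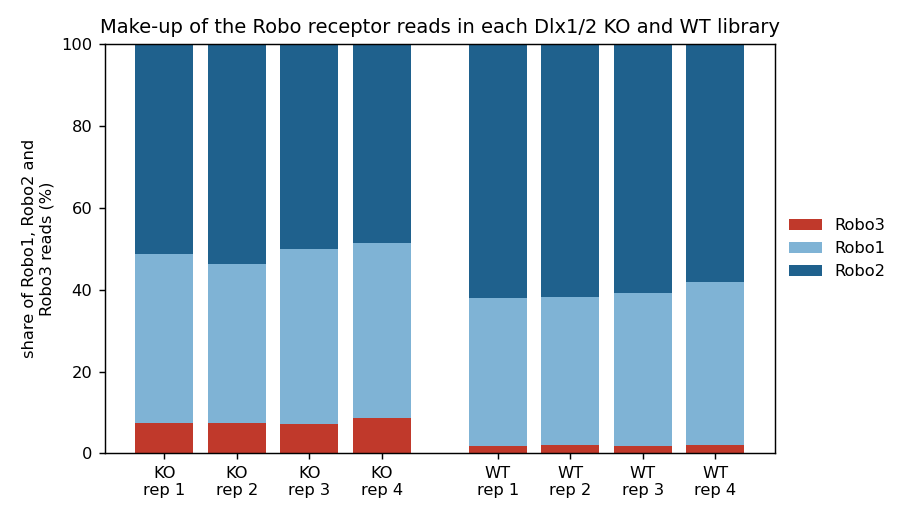
Share of the summed Robo1, Robo2 and Robo3 reads (y axis, percent) taken by each receptor gene in the 4 KO libraries (left) and the 4 WT libraries (right). The Robo3 part is 7.13% to 8.55% in KO and 1.70% to 1.94% in WT.

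For each gene that passed the test, 1 promoter is shown because the DLX factors are homeodomain proteins. The usual core site of such proteins is TAAT, and the longer TAATT was searched here. Robo2 has several annotated starts, and the one shown was picked because it holds TAATT. The sequences come from RefSeq on build GRCm38.p6 and run from 250 bases before to 50 after the annotated start, 5′ to 3′ on the strand of the gene. Capitals mark TAATT on either strand.
Robo3, chr9:37433126-37433425, minus strand: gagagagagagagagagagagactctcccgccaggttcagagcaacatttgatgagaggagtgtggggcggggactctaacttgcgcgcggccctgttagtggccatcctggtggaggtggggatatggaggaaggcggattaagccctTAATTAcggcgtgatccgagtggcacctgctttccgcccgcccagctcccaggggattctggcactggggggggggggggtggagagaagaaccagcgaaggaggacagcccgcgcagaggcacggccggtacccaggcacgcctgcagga
Robo2, chr16:75447244-75447543, minus strand: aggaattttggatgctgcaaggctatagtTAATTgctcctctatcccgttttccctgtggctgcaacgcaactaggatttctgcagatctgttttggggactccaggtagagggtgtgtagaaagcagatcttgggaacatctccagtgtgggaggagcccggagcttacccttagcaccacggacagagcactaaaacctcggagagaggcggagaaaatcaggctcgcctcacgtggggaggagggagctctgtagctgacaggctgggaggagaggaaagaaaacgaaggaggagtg
In the Robo3 promoter the letters TAATTA begin 101 bases before the start. TAATTA is its own reverse complement, so it holds TAATT on both strands, and the capitals there are these overlapping matches. In this Robo2 promoter TAATT begins 221 bases before the start. The other Robo2 starts of the table, at chr16:75092721-75093020 and chr16:74411776-74412075, held none, nor did the promoters of Robo1, Slit2, Slit3, Srgap1, Srgap2 and Srgap3 (Slit1 had no entry). TAATT stood in 27.0% of 32851 mouse promoters of this length, and TAATTA in 5.29%. Counted by gene symbol, with a match in any listed promoter of the gene, the shares were 29.9% and 6.12% of 27025 symbols. A match is a description of letters and not a bound site. The deposited DLX peaks are on another build, mm9, and were not set beside these genes.

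Robo3 stands next to Robo4 on the chromosome, by the order of genes in RefSeq on GRCm38.p6. Robo4, the receptor of blood vessels, had 5.12 ± 1.63 CPM in KO and 5.11 ± 1.42 CPM in WT (SD, n = 4 each; log2 −0.02, SE 0.26, edgeR adjusted p = 1). Msantd2, the nearest tested gene on the other side, had 51.4 ± 4.23 CPM in KO and 52.0 ± 4.19 CPM in WT (log2 −0.02, SE 0.10, edgeR adjusted p = 1). Both neighbours were named for their position. Robo1 and Robo2 are neighbours as well, and their changes are those given above. Beyond Robo2 lies Rbm11, at 3.67 ± 0.884 CPM in KO and 4.03 ± 0.329 CPM in WT (edgeR adjusted p = 1).

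Among the ligands, all 3 Slit genes had a positive log2 change, and none passed the test. Slit2, whose protein is known from the midline and the septum, came closest. KO replicates 1 to 4 had 31.8, 28.5, 41.1 and 36.8 CPM, against 23.7, 23.6, 26.7 and 25.4 CPM in WT replicates 1 to 4. Every KO library was above every WT library, but the KO values were spread, with replicates 3 and 4 high. Slit2 averaged 34.5 ± 5.55 CPM in KO and 24.9 ± 1.49 CPM in WT (SD, n = 4 each). The log2 change was 0.47 (SE 0.12, edgeR adjusted p = 0.117, 95% interval 0.20 to 0.74). Blocking on the replicate number gave a log2 change of 0.46 that passed (edgeR adjusted p = 0.0066). DESeq2 also called it (log2 0.47, adjusted p = 0.0209), and over all 16 alternatives the adjusted p ran between 0.0066 and 0.311. These settings call more genes: 2.22% of all genes tested were higher in KO and 2.16% lower with the block, and 1.57% higher and 1.64% lower with DESeq2.

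Slit1, a ligand made in the developing forebrain, had 26.8, 25.3, 44.6 and 34.9 CPM in KO replicates 1 to 4 and 23.7, 23.6, 28.3 and 40.3 CPM in WT replicates 1 to 4. The libraries numbered 3 and 4 were the high ones in both genotypes, and the genotypes overlapped. Its log2 change was 0.18 (SE 0.22, edgeR adjusted p = 1, 95% interval −0.31 to 0.67). A change of the size seen for Slit2 lies inside this interval, as does 0. Without KO replicate 3 it was −0.0004, and without WT replicate 4 it was 0.38. Slit1 and Slit2 had the same read number in WT replicate 1 (2708 reads) and in WT replicate 2 (477 reads). Among 10053 genes with over 1000 reads in WT replicate 1, 24 such matches of a count pair occurred, and the 2 genes differed in the other 6 libraries. Slit3 was measured on few reads, 53 to 130 in the KO libraries and 47 to 224 in the WT libraries. It averaged 2.85 ± 0.672 CPM in KO and 2.49 ± 0.590 CPM in WT (SD, n = 4 each; log2 0.19, SE 0.23, edgeR adjusted p = 1, 95% interval −0.32 to 0.71). Leaving out 1 library gave log2 changes between 0.07 (without WT replicate 1) and 0.37 (without WT replicate 4), with 0.36 without KO replicate 2 and 0.09 without KO replicate 3.

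Within the ligands, Slit2 took 49.6 ± 2.51% of the Slit reads in KO and 44.8 ± 5.34% in WT, and Slit1 took 46.4 ± 2.77% in KO and 50.8 ± 5.06% in WT. WT replicate 4 stood apart from the other WT libraries, with 36.8% for Slit2 and 58.4% for Slit1. These shares overlapped between the genotypes.

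None of the srGAP effector genes passed the test. Srgap1, whose protein acts on Cdc42 downstream of ROBO1, had 24.9, 23.5, 31.0 and 21.5 CPM in KO replicates 1 to 4 and 29.5, 28.7, 28.7 and 31.3 CPM in WT replicates 1 to 4. Of the KO libraries, 3 were below all WT libraries and replicate 3 was within their range (log2 −0.23, SE 0.12, edgeR adjusted p = 0.775, 95% interval −0.49 to 0.03). Srgap2, known for forming filopodia in migrating cortical neurons, had 41.1, 34.5, 53.0 and 46.2 CPM in KO replicates 1 to 4 and 44.4, 46.4, 56.7 and 66.8 CPM in WT replicates 1 to 4, and the groups overlapped. Its log2 change was −0.30 (SE 0.17, edgeR adjusted p = 0.903, 95% interval −0.66 to 0.07). It was −0.20 without KO replicate 2 and −0.17 without WT replicate 4. Srgap3, which acts on Rac1 and is also called WRP, had 86.6, 64.3, 110.8 and 97.2 CPM in KO replicates 1 to 4 and 72.4, 76.7, 98.4 and 101.7 CPM in WT replicates 1 to 4. The WT range lay inside the KO range. It had the change nearest 0 of the 9 genes (log2 0.04, SE 0.17, edgeR adjusted p = 1, 95% interval −0.35 to 0.43), and its sign turned when KO replicate 3, KO replicate 4, WT replicate 1 or WT replicate 2 was left out (lowest value −0.0781). As shares of the srGAP reads, Srgap2 took 27.6 ± 0.622% in KO and 31.3 ± 1.44% in WT, with no overlap, and Srgap3 took 56.3 ± 2.66% in KO and 51.1 ± 1.72% in WT. Fam72a overlaps Srgap2 in RefSeq. Whether counting used strand is unknown here, so reads in the overlap may belong to either gene.

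**Figure D3:**
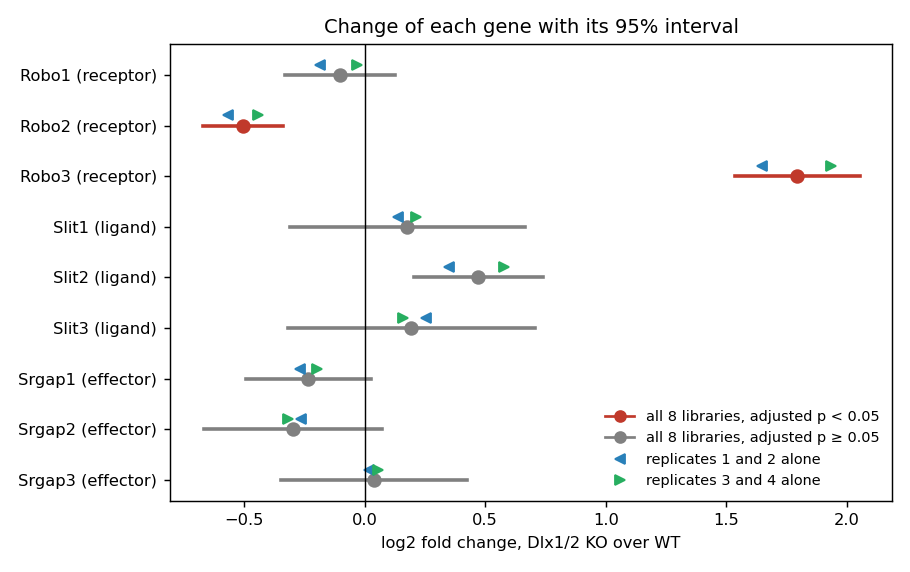
Log2 fold change of KO over WT (x axis) for each of the 9 genes, with its 95% interval from the fit of all 8 libraries; red marks an adjusted p under 0.05, and triangles give the fits of replicates 1 and 2 alone and of replicates 3 and 4 alone. Robo3 at 1.79 and Robo2 at −0.51 stand clear of 0 in each fit, and the interval of Slit2 runs from 0.20 to 0.74.

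The replicate numbers marked a second difference among these genes. In both genotypes, the libraries numbered 3 and 4 were above the libraries numbered 1 and 2 for 5 of the 9 genes: Robo1, Slit1, Slit2, Srgap2 and Srgap3. None of the 9 was lower in them. Over all genes tested, 23.0% were higher and 24.5% lower in replicates 3 and 4 of both genotypes. The labels do not say what the numbers stand for. Within replicates 1 and 2 alone, the log2 change was 1.65 for Robo3 (edgeR adjusted p = 3.7e-05), −0.57 for Robo2 (adjusted p = 0.0025) and 0.35 for Slit2 (adjusted p = 0.103). Within replicates 3 and 4 alone it was 1.94 for Robo3 (edgeR adjusted p = 8.0e-05), −0.44 for Robo2 (adjusted p = 0.0331) and 0.58 for Slit2 (adjusted p = 0.048). Robo3 and Robo2 were thus called in each subset of libraries. Of all genes tested, 1.22% were higher and 1.38% lower in KO within replicates 1 and 2, and 0.592% higher and 0.819% lower within replicates 3 and 4. Of the libraries numbered 3 and 4, KO replicate 3 is also the shallowest, and it held the highest value of the KO libraries for every one of the 9 genes except Robo3.

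The authors' deposited table gave values close to these. In that table the log2 change was 1.79 for Robo3 (adjusted p = 4.2e-25), −0.51 for Robo2 (adjusted p = 0.0136) and 0.47 for Slit2 (adjusted p = 0.108). The remaining 6 genes had an adjusted p of 1.00 in the authors' deposited table.

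Other genes of the pathway were taken from a list of 69, of which 64 were in the count table and tested. The other 5 were not analysed here. Of the 64, 2 rose and 1 fell, beside 0.586% called higher and 0.896% called lower of all genes tested. The median log2 change of the 64 was 0.01, and the genotypes did not overlap for 8 of them, beside 5.98% of all genes tested. Pak3, a p21-activated kinase that works downstream of Rac and Cdc42, had 1261, 1192, 953 and 962 CPM in KO replicates 1 to 4 and 569, 575, 500.1 and 486 CPM in WT replicates 1 to 4. Its log2 change was 1.04 (SE 0.12, edgeR adjusted p = 0.0018). Every KO library was far above every WT library. The other 22 tested cytoplasmic effectors, which include the GTPases Rac1, Cdc42 and Rhoa and the actin regulators Enah and Evl, did not pass, and the median over all 23 was −0.01.

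Flrt2 fell. It belongs to a family of membrane proteins of which FLRT3 is known to bind ROBO1. Flrt2 had 93.7, 96.8, 73.6 and 83.9 CPM in KO replicates 1 to 4 and 164, 191, 142 and 149 CPM in WT replicates 1 to 4, with no overlap. Its log2 change was −0.89 (SE 0.12, edgeR adjusted p = 0.0043). The remaining 7 of the 8 further receptors and ligands, among them Robo4, Plxna1 and Nell2, did not pass.

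Lhx9, a LIM homeodomain factor known with Lhx2 to act upstream of Robo3 in commissural neurons of the mouse spinal cord, rose. It had 34.1, 31.9, 36.1 and 34.9 CPM in KO replicates 1 to 4 and 22.0, 19.5, 23.0 and 23.7 CPM in WT replicates 1 to 4 (log2 0.63, SE 0.09, edgeR adjusted p = 0.0061). Lhx2 averaged 78.3 ± 11.2 CPM in KO and 50.6 ± 12.5 CPM in WT (SD, n = 4 each), with the lowest KO library at 68.2 and the highest WT library at 68.1 CPM. Its log2 change was 0.63 (SE 0.17, edgeR adjusted p = 0.148). The edgeR adjusted p was 0.0011 once the replicate number was a block, and 0.031 without WT replicate 4, the highest WT library (range over the alternatives 0.0011 to 0.383). The only other upstream factor tested, Sim1, did not pass.

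Netrins and their receptors, the partner system of midline guidance, gave no call among 9 genes. Ntn4 averaged 39.4 ± 4.33 CPM in KO and 29.2 ± 0.947 CPM in WT (SD, n = 4 each; log2 0.43, SE 0.10, edgeR adjusted p = 0.070, 0.0124 with the replicate block, and 0.025 without KO replicate 3). The netrin receptor Unc5c averaged 28.0 ± 5.05 CPM in KO and 20.3 ± 0.711 CPM in WT (SD, n = 4 each; log2 0.46, SE 0.12, edgeR adjusted p = 0.144, and 0.0213 with the replicate block). Heparan sulfate chains take part in the binding of SLIT to ROBO proteins. The list held 11 tested genes that make or carry these chains, and none passed. Hs6st2, a sulfotransferase of these chains, averaged 43.3 ± 4.87 CPM in KO and 58.3 ± 5.60 CPM in WT (SD, n = 4 each; log2 −0.43, SE 0.11, edgeR adjusted p = 0.128, and 0.0039 with the replicate block). The chain carriers Sdc4 and Sdc2, syndecans, had log2 changes of 0.38 and 0.21 (edgeR adjusted p = 0.489 and 0.71). None of 6 genes of receptor traffic and turnover and none of 4 of RNA processing passed. With the replicate block 6 of the 64 rose and 2 fell, beside 2.22% higher and 2.16% lower of all genes tested. Over the alternatives the adjusted p ran between 0.0018 and 0.438 for Ntn4, 0.0213 and 0.348 for Unc5c, and 0.0039 and 0.366 for Hs6st2.

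**Figure D4:**
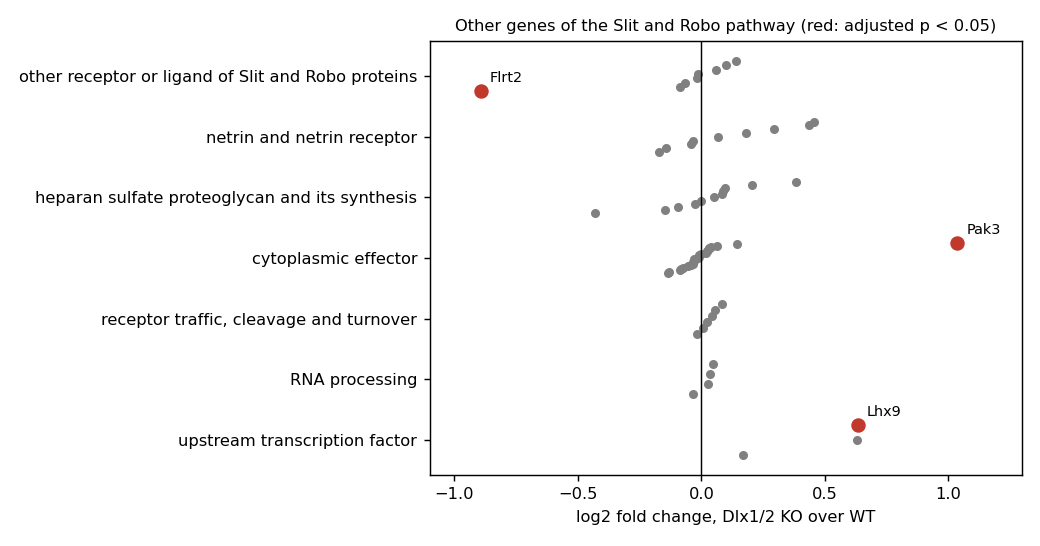
Log2 fold change of KO over WT (x axis) for the 64 other pathway genes, grouped by role, one point per gene; red points passed an adjusted p of 0.05. Pak3 at 1.04, Lhx9 at 0.63 and Flrt2 at −0.89 are called, and most other points lie within 0.2 of 0.

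By level over the 8 libraries, the genes most like Robo3 were Bub3, a spindle checkpoint protein (Pearson r = 0.986 of log2 CPM), Hrh3, a histamine receptor (r = 0.986), and Zbtb20, a zinc finger factor (r = 0.985). Their log2 changes were 0.29, 1.04 and 0.55, and Bub3 did not pass the test (edgeR adjusted p = 0.0913). Those most like Robo2 were Sestd1 (r = 0.992), Adarb2 (r = 0.990) and 4930506M07Rik (r = 0.986), with log2 changes of −0.72, −1.50 and −0.78. The libraries share the genotype difference and the difference between replicate numbers, so these correlations only describe the pattern.

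Marker lists of other cells are given beside Robo3 and Robo2 by their calls and by their summed level, which was not tested. Of 9 markers of diencephalon and habenula, the habenula being a known site of Robo3, 6 were in the count table and 5 were tested. The tested markers summed to 18.8 to 24.0 CPM in KO and 11.3 to 16.1 CPM in WT. Gng8 was in the count table but did not pass the count filter, so the sum leaves it out. Of 5 tested, 1 was called, Otp, a hypothalamic factor, at 2.53 ± 0.426 CPM in KO and 0.203 ± 0.0725 CPM in WT (SD, n = 4 each; edgeR adjusted p = 5.2e-05). Gbx2, a factor of the thalamus, had 5.46 ± 1.57 CPM in KO and 2.78 ± 0.511 CPM in WT, with no overlap (log2 0.98, edgeR adjusted p = 0.0748). The habenula factor Pou4f1 was low in both, at 0.713 ± 0.173 CPM in KO and 0.577 ± 0.182 CPM in WT. Radial glia markers summed to 2462 to 3016 CPM in KO and 1917 to 2400 CPM in WT, with none of 7 called and only Hes5 not overlapping between genotypes. The largest part of that sum was Fabp7, at 1284 ± 281 CPM in KO and 1004 ± 140 CPM in WT (SD, n = 4 each). Pan-neuronal markers summed to 4687 to 4854 CPM in KO and 5031 to 5588 CPM in WT, with none of 5 called and all 5 overlapping between genotypes. Tubb3 was the largest part there, at 1611 ± 283 CPM in KO and 1836 ± 448 CPM in WT (SD, n = 4 each). Subpallial markers summed to 413 to 484 CPM in KO and 636 to 645 CPM in WT, and 4 of 10 fell, namely Gad1, Gad2, Ebf1 and Lhx6. None of 11 pallial, 4 Cajal-Retzius, 7 endothelial or 5 mesenchymal markers was called. The part of these cells in the changes of Robo3, Robo2 and Slit2 was not tested.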

How the data were processed

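RNA-seq of 4 KO and 4 WT libraries at e13.5 was used. Per the submitters' processing notes, reads were handled with bcl2fastq and STAR 2.4.2a on mm9. Counting tool, annotation and strand setting were not given in the sources used here. Labels name both polyA RNA and a ribosome-depletion kit. The authors deposited raw counts per gene symbol, summing to 14444752 to 116989915 per library. The same table holds the authors' log2 fold change and log2 mean CPM, a likelihood ratio score and p-values, per the file headers.

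The counts were tested with edgeR 4.0.16 in R 4.3.3 (glmQLFTest, TMM scaling; genes kept by filterByExpr, minimum count 10), KO against WT, adjusted over all genes tested at 0.05. The procedure was tested on simulated data first. SE is the size of the log2 change divided by the square root of its F value, and intervals are at 95%. P-values measure the spread between these libraries, which may be technical. The members, gene lists and named genes were chosen with earlier results of these data known. Named genes are all 9 members, called pathway genes and the next 6 by p, and the 3 genes best correlated with each called member. Deviations of libraries with the same number from their genotype mean correlated across genotypes at 0.155, 0.293, 0.374 and 0.482 for replicates 1 to 4. All were over 0.1, the level set for taking numbers to pair libraries, so a fit with them as a block was run. KO replicate 1 correlated better with WT replicate 2 (0.394) and KO replicate 2 with WT replicate 1 (0.603), and unlike numbers within 3 and 4 also correlated (0.226 and 0.216). Other alternatives were DESeq2 1.42.0 and its size factors, total counts, other filters and fewer libraries. Peak lists were not used, since no mm9 annotation was at hand, and the planned counts of peaks at members were not run.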

Additional observations from a re-analysis of the deposited data

How the results depend on the processing

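Robo3 and Robo2 kept their direction and their call in all 16 alternatives. Robo3 ranged from 1.65 to 1.94 and Robo2 from −0.57 to −0.44 on the log2 scale, with edgeR or DESeq2 adjusted p of at most 0.00027 for Robo3 and 0.0375 for Robo2. Of the 9 genes, 2 were higher, Robo3 and Slit2, with DESeq2, with the replicate block and with replicates 3 and 4 alone. Slit2 had log2 values of 0.38 to 0.56 and edgeR adjusted p of 0.057 to 0.311 when 1 library was left out. Slit1 ran from −0.0004 (without KO replicate 3) to 0.38 and Srgap3 from −0.0781 to 0.17 when 1 library was left out, and their signs turned. With the replicate block 322 genes were higher and 313 lower over the whole table; DESeq2 gave 230 and 241, and replicates 1 and 2 alone gave 178 and 202. Leaving out 1 library gave 50 to 66 higher and 92 to 121 lower. Pathway genes called higher and lower were 5 and 2 with DESeq2, 6 and 2 with the replicate block and 4 and 2 with replicates 1 and 2 alone. The block changed no call of a member other than Slit2. When 1 library was left out, Robo1 ran between −0.15 and −0.03, Srgap2 between −0.40 and −0.17 and Slit3 between 0.07 and 0.37. Pathway calls without 1 library were 2 to 3 higher and 1 lower. Slit3, on 47 to 224 reads a library, is the member whose change is least precisely measured.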
